A study of Mus musculus with 16 samples.

Results

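The hexokinase family was represented by 4 genes, *Hk1*, *Hk2*, *Hk3* and *Hkdc1*, chosen by name from the 55492 genes for which a count was deposited. The reads came from left ventricles of 16 male C57BL/6 mice, aged 8 to 12 weeks, with 1 library per mouse. PKM2fl/fl mice carry loxP sites around exon 10 of *Pkm*, the exon found only in the PKM2 isoform of pyruvate kinase, and served as controls. PKM2-/- mice have lost that exon in every tissue through a CMV promoter-driven Cre that was afterwards bred out, so the knockout is not restricted to cardiomyocytes (CM). Each genotype was sampled at baseline without surgery (2 mice), after a sham operation (3 mice) and after myocardial infarction (MI) by permanent ligation of the left anterior descending artery (3 mice). The operated hearts were harvested on day 3.

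Hexokinases phosphorylate glucose to glucose 6-phosphate, the step that holds glucose in the cell and opens glycolysis, glycogen synthesis and the pentose phosphate pathway. HK1 is found in most tissues, HK2 is the insulin-responsive isozyme of muscle and adult heart, and HK3 is known mainly from myeloid blood cells. HK1 and HK2 can dock on the outer mitochondrial membrane through the channel protein VDAC, while HKDC1 is a less studied member whose gene neighbours *Hk1*. The data hold RNA only, so enzyme amount, docking and activity were not measured.

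All 4 genes lie on the minus strand in the GRCm38 assembly (mm10). *Hk1* spans chr10:62268855-62379920 and *Hkdc1* chr10:62383137-62423711, with 3216 bases between them. *Hk2* spans chr6:82725025-82774454 and *Hk3* chr13:55005985-55021475. The promoters of the 3 measured members are shown because their transcripts behaved differently after MI. Each window runs from 250 bases before to 50 bases after a RefSeq start, 5′ to 3′ on the gene's strand. Capitals mark ACGTG (the core of hypoxia response elements), CCAAT (the CCAAT box) or GGAAGT (the core of many ETS factor sites), on either strand.
Hk2, chr6:82774405-82774704: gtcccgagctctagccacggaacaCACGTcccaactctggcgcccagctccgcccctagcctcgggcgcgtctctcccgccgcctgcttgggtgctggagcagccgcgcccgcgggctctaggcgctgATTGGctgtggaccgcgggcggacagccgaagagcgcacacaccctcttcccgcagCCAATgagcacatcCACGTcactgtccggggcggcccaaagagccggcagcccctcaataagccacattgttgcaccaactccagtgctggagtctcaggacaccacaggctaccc
Hk1, chr10:62340372-62340671: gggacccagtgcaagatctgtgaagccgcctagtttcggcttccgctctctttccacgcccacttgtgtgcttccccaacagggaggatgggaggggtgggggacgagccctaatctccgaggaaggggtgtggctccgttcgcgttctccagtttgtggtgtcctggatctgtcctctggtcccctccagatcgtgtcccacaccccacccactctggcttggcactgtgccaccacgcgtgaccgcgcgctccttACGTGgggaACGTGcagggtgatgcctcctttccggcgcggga
Hk3, chr13:55021336-55021635: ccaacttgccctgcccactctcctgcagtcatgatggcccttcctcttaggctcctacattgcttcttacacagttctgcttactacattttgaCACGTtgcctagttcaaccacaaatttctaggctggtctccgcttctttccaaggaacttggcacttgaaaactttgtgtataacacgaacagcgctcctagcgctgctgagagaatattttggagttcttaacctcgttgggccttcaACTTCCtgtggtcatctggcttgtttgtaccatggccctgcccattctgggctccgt
The *Hk2* window held 25 CpG dinucleotides, more than in 81.6% of the 32851 RefSeq windows of this length. It had 2 matches to ACGTG, starting at -226 and -52 from the transcription start, and 2 to CCAAT, starting at -122 and -66. The *Hk1* window shown, from the more downstream of 2 RefSeq starts, held 20 CpG dinucleotides and 2 matches to ACGTG, both after the start. The other *Hk1* window, chr10:62379859-62380158, held 1 CpG and no match to ACGTG. The *Hk3* window held 7 CpG dinucleotides, the median over all windows, with 1 match to ACGTG and 1 to GGAAGT starting at -7. ACGTG occurred in 19.6% of all windows, CCAAT in 37.4% and GGAAGT in 23.8%, so these matches are common and are given as a description of the sequence only.

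The libraries held 20623769 to 71855101 reads on genes, of which 16.8% to 49.9% fell on rRNA-related loci. *Pkm* as a whole gene, the locus targeted, had 9108 and 9602 normalized counts in PKM2fl/fl and 11981 and 12984 in PKM2-/- baseline hearts. After sham it had 7779 to 9444 in PKM2fl/fl and 11710 to 14242 in PKM2-/- hearts. After MI the genotypes overlapped, at 9576 to 12076 and 10120 to 16113. *Pkm* was not called in any comparison of the genotypes, and a count over the whole gene does not check the loss of exon 10. None of the 8 CM markers was at 0 in any library. The same held for the monocyte and macrophage, fibroblast and endothelial markers, so this does not check the labelled tissue. MI set the libraries apart. The summed CM markers were 812608 to 1058220 normalized counts in the 10 hearts without MI and 168049 to 408739 in the 6 with MI, while all 8 monocyte and macrophage markers rose in both genotypes. In whole ventricle, fewer cells of a type and less RNA per cell cannot be told apart.

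*Hk2*, the main hexokinase of cardiac muscle, fell after MI in both genotypes. Its normalized read counts (reads divided by a size factor per library) in PKM2fl/fl hearts were 7482, 6324 and 7194 after sham and 4198, 3711 and 2516 after MI. The PKM2-/- values were 6212, 8452 and 6112 after sham and 3166, 3009 and 2940 after MI. All 6 MI hearts lay below all 10 hearts without MI, with PKM2fl/fl MI replicate 3 the lowest. The level after MI was 0.487 of the sham level in PKM2fl/fl hearts, a log2 fold change of -1.04 (SE 0.16, adjusted p = 9.71e-05, limma on log2 of the count plus 1). It was 0.444 of the sham level in PKM2-/- hearts, a log2 fold change of -1.17 (SE 0.16, adjusted p = 2.28e-05). Both changes passed a 2-fold change as well as the adjusted p. MI changed much of the transcriptome, with 50.1% of the 20576 genes tested called in PKM2fl/fl hearts and 56.8% in PKM2-/- hearts. Against this background 2 of the 3 hexokinases tested were called in each genotype, and 11.4% and 12.3% of genes had a lower log2 fold change than *Hk2*. Without PKM2fl/fl MI replicate 3, which also had the lowest CM markers, the log2 fold change of *Hk2* was -0.82 (adjusted p = 0.000129). With libraries scaled to total reads, *Hk2* in PKM2-/- hearts was at -0.66 with an adjusted p of 0.0879 from limma, but the median of all genes stood at 0.52 under that scaling and *Hk2* at -1.18 relative to it.

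**Figure D1:**
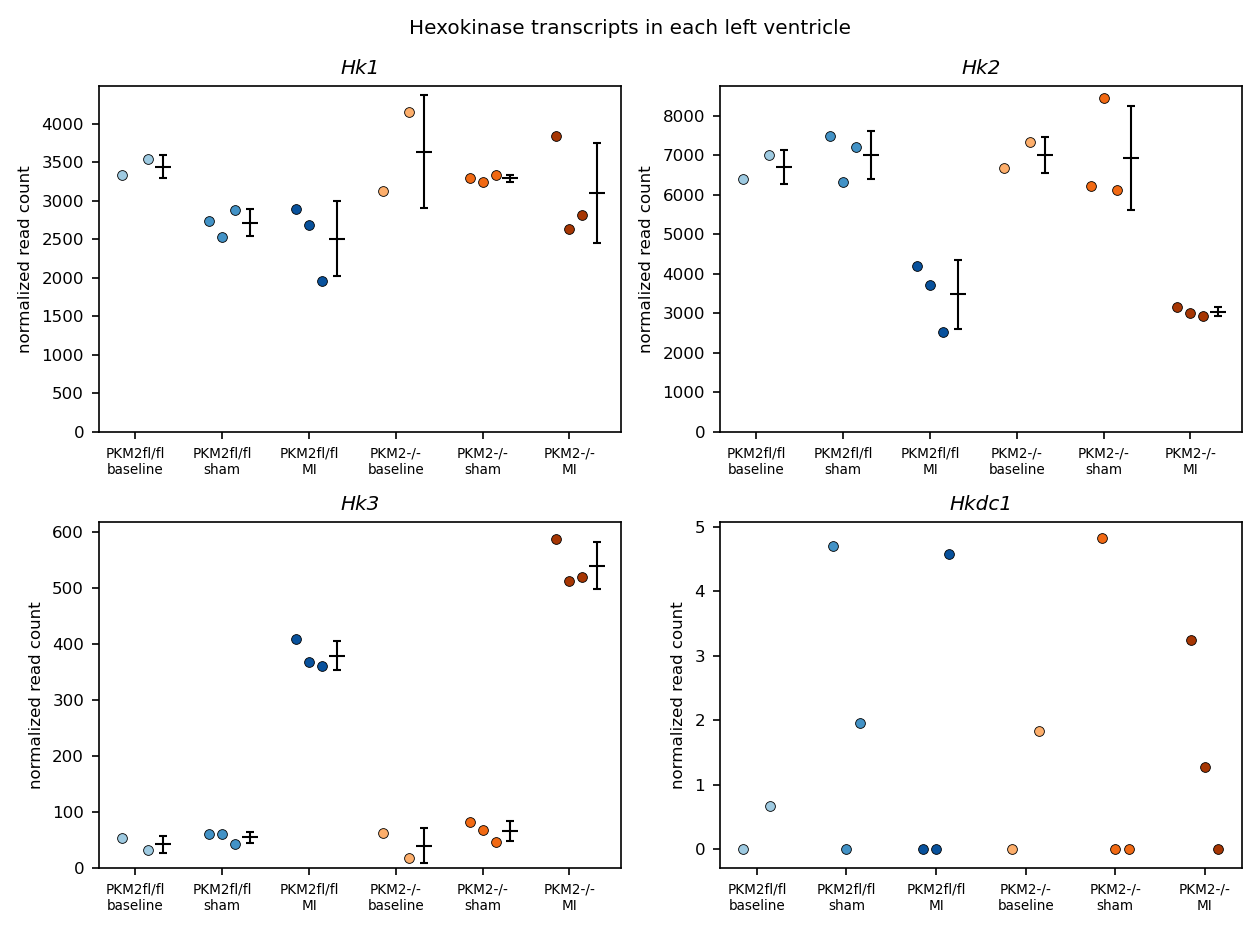
Normalized read counts of *Hk1*, *Hk2*, *Hk3* and *Hkdc1* (y axes, linear) in the 6 groups (x axes), with 1 point per heart and, beside the points, the mean and SD for the first 3 genes. *Hk2* in the 6 MI hearts, 2516 to 4198, lay under all other hearts, *Hk3* in the MI hearts, 361 to 589, lay above all others, and *Hkdc1* never passed 4.82.

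*Hk3* moved in the opposite direction and by more. Its normalized counts in PKM2fl/fl hearts were 61.7, 60.6 and 43.1 after sham and 410, 369 and 361 after MI. Those of PKM2-/- hearts were 83.6, 67.9 and 47.5 after sham and 589, 513 and 519 after MI. The 6 MI hearts were thus far above the highest heart without MI, at 83.6. *Hk3* rose 6.86-fold in PKM2fl/fl hearts (log2 fold change 2.78, SE 0.34, adjusted p = 1.15e-05, limma). It rose 8.23-fold in PKM2-/- hearts (log2 fold change 3.04, SE 0.34, adjusted p = 3.26e-06, limma). In both genotypes 98% of genes had a lower log2 fold change. The reads behind each value ranged from 10 to 807, far fewer than for *Hk1* or *Hk2*, and the baseline values of 18.3 to 62.9 are the least precise. *Hk3* overlaps *Unc5a* on the opposite strand by 36 bases, and *Unc5a* stayed between 62.9 and 156 normalized counts in all hearts.

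*Hk1*, the isozyme of most tissues, was not called after MI in either genotype. Its normalized counts in PKM2fl/fl hearts were 2736, 2530 and 2884 after sham and 2892, 2679 and 1955 after MI. In PKM2-/- hearts they were 3292, 3248 and 3332 after sham and 3841, 2632 and 2817 after MI. Sham and MI overlapped in both genotypes, and the spread among MI hearts was wide. The log2 fold change was -0.13 in PKM2fl/fl hearts (95% interval -0.47 to 0.20, adjusted p = 0.507, limma) and -0.11 in PKM2-/- hearts (-0.44 to 0.23, adjusted p = 0.582). The sign is not fixed by these data, since the PKM2fl/fl value was 0.037 without MI replicate 3 and the PKM2-/- value was 0.40 with scaling to total reads. PKM2-/- MI replicate 1, the highest MI heart for *Hk1*, also had the highest summed level of the 6 erythroid markers, 21468.5 against 5994 to 10676.5 in the other MI hearts. None of those 6 markers was called after MI, and their part in the *Hk1* value was not tested.

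*Hkdc1* was barely detected. It had 28 reads over all 16 libraries, no read in 8 of them, and at most 8 reads in any library. The 8 libraries with none held 22335862 to 49799285 reads, of which a count of 0 allows up to 3 for *Hkdc1*, covering counting error only. With a mean of 1.44 normalized counts it did not reach the minimum of 10 for testing, so 3 of the 4 members were tested. Its neighbour *Hk1* had 1871 to 5884 reads in the same libraries.

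The makeup of the family shifted after MI. As shares of reads per kilobase, with each gene's length taken over all annotated exons, *Hk2* made up 72.4% ± 0.96 (SD, n = 3) of the 4 genes in PKM2fl/fl sham hearts and 53.2% ± 2.4 (n = 3) after MI. In PKM2-/- hearts it made up 67.9% ± 4.1 (n = 3) after sham and 44.4% ± 3.4 (n = 3) after MI. *Hk1* made up 26.5% ± 1.0 after sham and 36.5% ± 0.66 after MI in PKM2fl/fl hearts, and 30.9% ± 4.0 and 42.1% ± 3.9 in PKM2-/- hearts. *Hk3* went from 0.982% ± 0.22 to 10.2% ± 1.9 in PKM2fl/fl hearts and from 1.12% ± 0.34 to 13.4% ± 0.48 in PKM2-/- hearts. At baseline the shares of *Hk2* were 66.9% ± 0.68 and 66.8% ± 2.6 (n = 2 each) in PKM2fl/fl and PKM2-/- hearts. The summed level of the 4 genes was 9774 ± 749 normalized counts after sham and 6365 ± 1374 after MI in PKM2fl/fl hearts, and 10284 ± 1286 and 6677 ± 801 in PKM2-/- hearts. Which isozyme leads depends on the length used. With the longest annotated transcript as length, 4421 bases for *Hk1* in place of 8773, *Hk2* had 58.8% and *Hk1* 40.3% in PKM2fl/fl sham hearts, and *Hk2* had 32.2% and *Hk1* 56.9% in PKM2-/- MI hearts. The shift between sham and MI went the same way with both lengths. Each library had 4351 to 20650 hexokinase reads, which held the 95% Wilson interval of any share of reads to at most 2.96 percentage points. These intervals take each read as independent. Whether both mates of a read pair were counted is not given, and if so the intervals are too narrow.

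**Figure D2:**
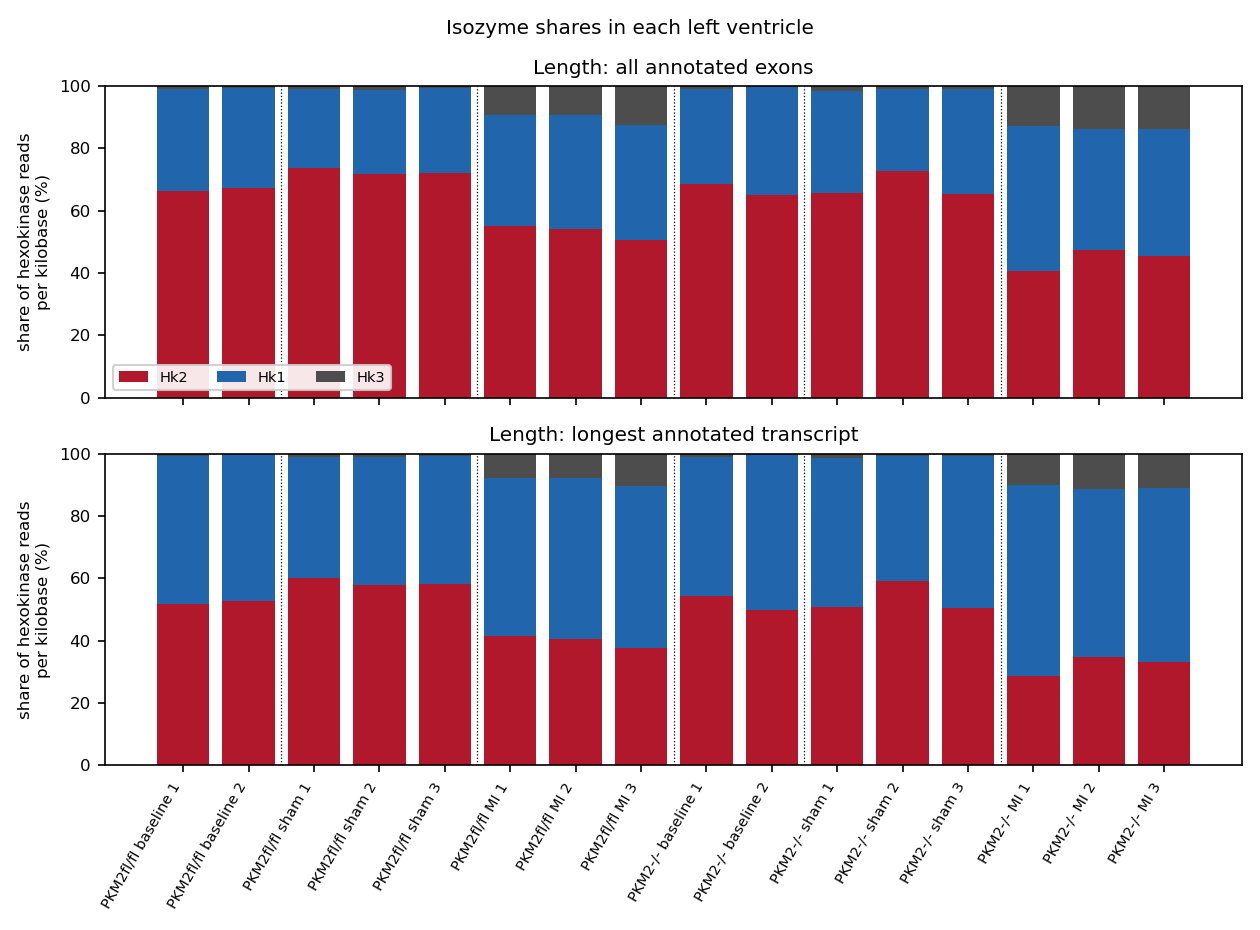
Stacked shares of *Hk2*, *Hk1* and *Hk3* among hexokinase reads per kilobase (y axis, percent) in each heart (x axis), with gene length from all annotated exons (upper panel) or from the longest transcript (lower panel). In the MI hearts the *Hk2* share was smaller and the *Hk3* share larger in both panels, while the level of *Hk1* against *Hk2* differed between the panels.

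The ratio of *Hk2* to *Hk1* reads does not depend on gene length between hearts or on library scaling. It was 2.73, 2.50 and 2.49 in PKM2fl/fl sham hearts and 1.45, 1.39 and 1.29 after MI. For PKM2-/- hearts it was 1.89, 2.60 and 1.83 after sham and 0.824, 1.14 and 1.04 after MI. Every MI heart was under every sham heart of its genotype. The log2 ratio was lower by 0.99 on average within genotype, a log2 difference of -0.99 over 6 against 6 hearts (exact permutation test within genotype, two-sided, p = 0.005, the smallest it allows, adjusted p = 0.025 over 5 tests). For each genotype alone, the difference was -0.91 and -1.06, at the p of 0.1 that is the smallest an exact permutation test of 3 against 3 hearts allows. Compared between genotypes within treatment, the log2 ratio was lower in PKM2-/- hearts by 0.26, a difference of -0.26 over 8 against 8 hearts (exact permutation test, two-sided, p = 0.0175, adjusted p = 0.0438). The group mean ratios were 1.95 and 1.95 at baseline, 2.58 and 2.11 after sham, and 1.37 and 1.00 after MI in PKM2fl/fl and PKM2-/- hearts. The genotypes thus overlapped at baseline and after sham, and did not overlap after MI. Without PKM2-/- baseline replicate 2 the difference was -0.21 (exact permutation p = 0.0583). From baseline to sham the log2 ratio differed by 0.25 (exact permutation p = 0.09, adjusted p = 0.1), which did not pass.

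No hexokinase was called between the genotypes. The level of *Hk1* was 3339 and 3545 in PKM2fl/fl and 3122 and 4154 in PKM2-/- baseline hearts, and that of *Hk2* was 6395 and 7003 against 6675 and 7325. *Hk3* was at 53.4 and 31.8 against 62.9 and 18.3, with wide overlap. The log2 fold changes of PKM2-/- against PKM2fl/fl at baseline were 0.07 for *Hk1*, 0.06 for *Hk2* and -0.27 for *Hk3*. Few genes of any kind were called between genotypes, 0.00972% at baseline, 0.00972% after sham and 0.967% after MI, so 0 of 3 members is near the background. That background depends on the fit, since the 2 genes called at baseline, 2 after sham and 199 after MI became 17, 273 and 1033 with DESeq2 and 48, 9 and 6 with only the groups compared. No hexokinase was called between genotypes in those fits either. The largest genotype differences of *Hk1* were in the operated hearts. After sham, all 3 PKM2-/- hearts (3248 to 3332) were above all 3 PKM2fl/fl hearts (2530 to 2884), a log2 fold change of 0.28 (95% interval -0.06 to 0.61, adjusted p = 0.603, limma). After MI the groups overlapped and the log2 fold change was 0.30 (-0.03 to 0.64, adjusted p = 0.343). For *Hk3* after MI, all PKM2-/- hearts (513 to 589) were above all PKM2fl/fl hearts (361 to 410), a log2 fold change of 0.51 (-0.22 to 1.23, adjusted p = 0.481, limma). How many of all genes separate the genotypes in this way was not counted, so the separations of *Hk1* and *Hk3* are description only. The summed level of 7 neutrophil markers after MI was also separated, 3781 to 4915 in PKM2-/- and 1329 to 2348 in PKM2fl/fl hearts. Of these markers 6 were tested and 0 were called between the genotypes. The summed monocyte and macrophage markers overlapped after MI. The part of these cells in the *Hk3* difference was not tested. *Hk2* differed by -0.03 after sham (-0.38 to 0.32) and -0.16 after MI (-0.51 to 0.19). The genotype effect on the response to MI was tested by an interaction term, which was 0.03 for *Hk1*, -0.13 for *Hk2* and 0.26 for *Hk3* on the log2 scale, with intervals of -0.45 to 0.50, -0.63 to 0.36 and -0.77 to 1.29. None passed, and 0% of all genes passed that term with limma (1703 had an unadjusted p under 0.05), 0 genes with edgeR and 52 with DESeq2.

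The sham operation was compared with baseline within genotype, where 0.19% of genes were called in PKM2fl/fl and 5.14% in PKM2-/- hearts. No hexokinase was among them. *Hk2* differed by 0.06 and -0.03 on the log2 scale in PKM2fl/fl and PKM2-/- hearts. In PKM2fl/fl hearts all 3 sham values of *Hk1* lay under both baseline values, a log2 fold change of -0.34 (95% interval -0.72 to 0.03, adjusted p = 0.625, limma), and in PKM2-/- hearts the difference was -0.13 with overlap. The share of all genes with such a separation was not counted. *Hk3* was at 47.5 to 83.6 after sham and 18.3 to 62.9 at baseline in PKM2-/- hearts, a log2 fold change of 0.90 (0.09 to 1.71, adjusted p = 0.21, limma). Without PKM2-/- baseline replicate 1 it was 1.76 and passed (adjusted p = 0.0124, limma), with a lone baseline heart of that genotype. The summed level of 7 neutrophil markers was 136 to 174 at baseline and 1043 to 1339 after sham in PKM2-/- hearts, and 84.0 to 190 and 231 to 1379 in PKM2fl/fl hearts. Of these 7 markers, 6 rose in PKM2-/- hearts. In PKM2-/- hearts the summed monocyte and macrophage markers were 3343 to 4668 at baseline and 6177 to 8061 after sham, with 1 of 8 called. Their summed fibroblast markers were 14875 to 16964 and 23399 to 38008, with 2 of 5 called. In PKM2fl/fl hearts the monocyte and macrophage sums were 3276 to 4403 at baseline and 4828 to 9472 after sham. The fibroblast sums there were 14297 to 17597 and 20865 to 38524, and no gene of either list was called. The part of these cells in the *Hk3* values was not tested.

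**Figure D3:**
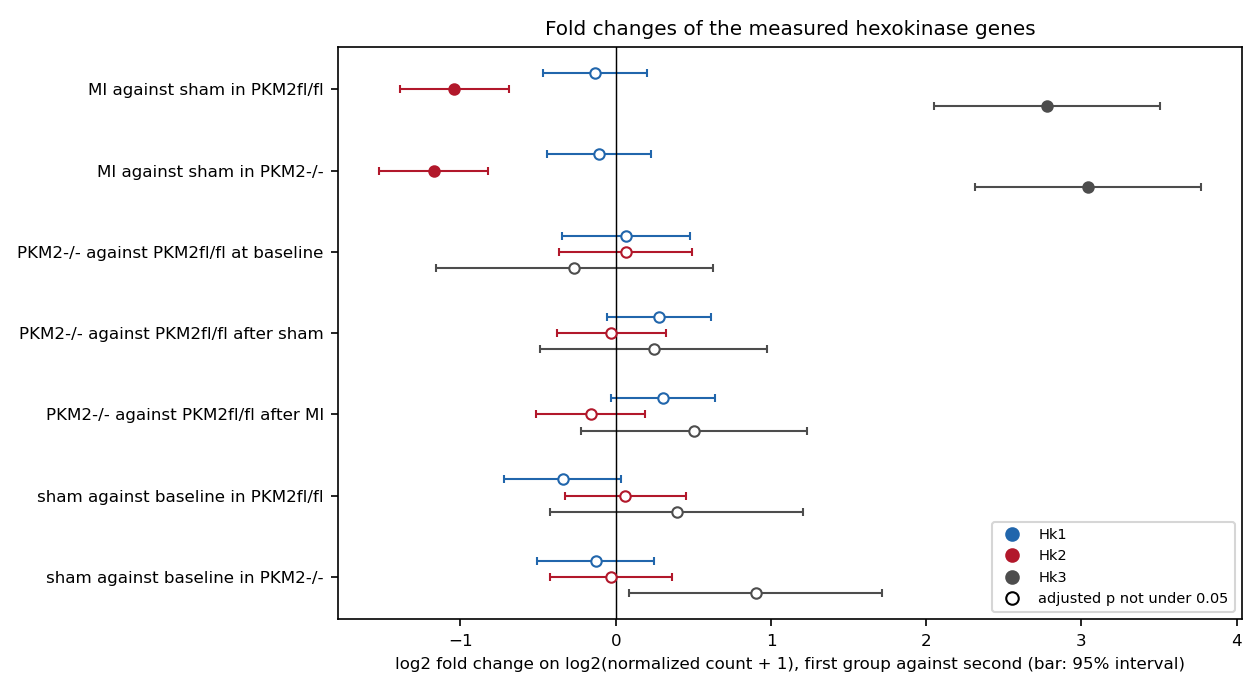
Log2 fold changes (x axis, on log2 of the normalized count plus 1) of *Hk1*, *Hk2* and *Hk3* in 7 comparisons (y axis), with bars for 95% intervals and filled points where the adjusted p was under 0.05. Filled points appear for *Hk2* and *Hk3* in the comparisons of MI with sham, and all other points are open.

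Ordered by group mean, the 4 groups without MI had the highest *Hk2*, from 7000 in PKM2fl/fl sham to 6699 in PKM2fl/fl baseline hearts. Neighbouring groups among these 4 overlapped, and the MI groups at 3475 and 3039 overlapped each other. For *Hk3* the order was PKM2-/- MI (540.1 ± 42.1) and PKM2fl/fl MI (380 ± 26.1), then the groups without MI between 40.6 and 66.3, which overlapped. For *Hk1* the means ran from 3638 in PKM2-/- baseline to 2509 in PKM2fl/fl MI hearts, and of the 5 neighbouring pairs in that order only PKM2fl/fl baseline and PKM2-/- sham did not overlap.

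Set against CM markers of the same library, which fell further, *Hk2* stood higher after MI. The CM markers had a median log2 fold change after MI of -1.97 in PKM2fl/fl and -2.20 in PKM2-/- hearts, where 7 and 8 of the 8 were called lower. The exception was *Actc1*, cardiac actin, which was at -0.74 in PKM2fl/fl hearts (adjusted p = 0.0578, limma), a smaller difference than that of *Hk2*, and at -1.22 in PKM2-/- hearts. Relative to the mean log2 level of these markers, *Hk2* was higher after MI by 0.82 and *Hk1* by 1.81 (exact permutation tests within genotype, two-sided, p = 0.005 each, the smallest allowed, adjusted p = 0.01 over 8 tests). Sham and MI did not overlap for either gene in either genotype. By their median the markers fell more than *Hk2*, and *Hk1* was not called after MI. These tests therefore cannot tell a change of a hexokinase from the fall of the markers. Relative to the CM markers *Hk1* was also higher in PKM2-/- than in PKM2fl/fl hearts, by 0.43 over 8 against 8 hearts and without overlap in any treatment (exact permutation test within treatment, p = 0.000833, the smallest allowed, adjusted p = 0.00667). Without the markers this difference was 0.22 (exact permutation p = 0.05). The mean log2 level of the markers was itself lower in PKM2-/- than in PKM2fl/fl hearts. It was 16.43 against 16.55 at baseline, 16.42 against 16.52 after sham and 14.33 against 14.75 after MI. This test therefore cannot tell a higher *Hk1* from lower markers. At baseline the nearest hearts were at -4.745 in PKM2fl/fl and -4.737 in PKM2-/-. For *Hk2* relative to these markers the genotypes differed by 0.17 (exact permutation p = 0.137). *Hk3* rose after MI, as did all 8 monocyte and macrophage markers in both genotypes. Of the 7 neutrophil markers 6 were tested and 3 were called higher in each genotype, beside 50.1% and 56.8% of all genes called. The summed monocyte and macrophage markers were 4828 to 9472 after sham and 21347 to 36521 after MI in PKM2fl/fl hearts, and 6177 to 8061 and 27554 to 32137 in PKM2-/- hearts. Relative to the mean log2 level of these 8 markers, *Hk3* was higher after MI by 0.47 (exact permutation p = 0.025, adjusted p = 0.04), with overlap between sham and MI in PKM2fl/fl but not in PKM2-/- hearts. Relative to the 7 neutrophil markers it was higher by 1.79, without overlap in either genotype (exact permutation p = 0.005, adjusted p = 0.01). Both tests left out the baseline hearts. On the monocyte and macrophage scale the baseline means were -2.38 in PKM2fl/fl and -2.69 in PKM2-/- hearts. After sham they were -2.94 and -2.74, and after MI -2.57 and -2.18. On the neutrophil scale the means were 2.29 and 1.65 at baseline, -0.0053 and -0.45 after sham, and 1.97 and 1.15 after MI. There the baseline means were above those after MI. Between genotypes, *Hk3* differed by 0.09 and -0.64 on these scales and passed on neither (exact permutation p = 0.724 and 0.163). These comparisons with markers were chosen after the data had been seen, and a library-wide marker level does not say which cells hold a hexokinase transcript.

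**Figure D4:**
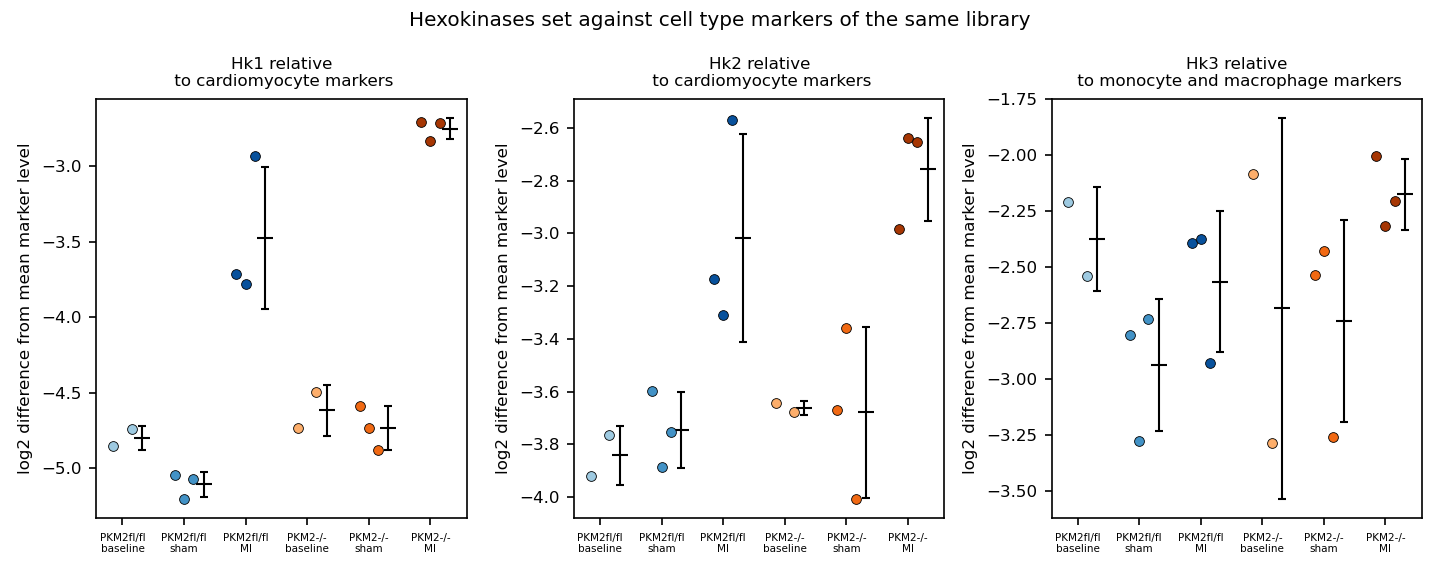
Log2 level of *Hk1* and *Hk2* minus the mean log2 level of 8 CM markers, and of *Hk3* minus that of 8 monocyte and macrophage markers (y axes), in the 6 groups (x axes), with 1 point per heart and the mean and SD. After MI, *Hk1* and *Hk2* stood higher by 1.81 and 0.82 against the CM markers, which themselves fell. *Hk3* against the monocyte and macrophage markers overlapped between sham and MI in PKM2fl/fl hearts and did not in PKM2-/- hearts.

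Around glucose 6-phosphate, of the 3 other genes tested that make or remove it 1 rose and 2 fell after MI, in both genotypes, with median log2 fold changes of -0.63 and -0.76. *Adpgk*, an ADP-dependent glucokinase, rose by 0.69 in PKM2fl/fl and 0.88 in PKM2-/- hearts on the log2 scale (adjusted p = 0.000134 and 1.06e-05, limma). *Slc37a4*, the transporter of glucose 6-phosphate into the endoplasmic reticulum, fell (-0.89 and -0.77), as did *G6pc3*, a widely expressed glucose-6-phosphatase (-0.63 and -0.76). Of the enzymes that take glucose 6-phosphate onward, 4 of the 5 tested rose and 1 fell in both genotypes (median 0.78 and 0.98), where 50.1% and 56.8% of all genes were called. The 1 that fell was *Gpi1*, which had the highest counts of the 5. It went from 7175 ± 141 to 5403 ± 792 normalized counts in PKM2fl/fl hearts and from 7694 ± 522 to 5470 ± 655 in PKM2-/- hearts. *G6pdx*, the first enzyme of the pentose phosphate pathway, went from 248 ± 28.8 normalized counts after sham to 634 ± 84.8 after MI in PKM2fl/fl hearts and from 255 ± 33.7 to 700 ± 24.5 in PKM2-/- hearts (SD, n = 3 each). Its log2 fold changes were 1.35 and 1.46 (adjusted p = 5.56e-06 and 1.65e-06, limma). *H6pd*, its counterpart in the endoplasmic reticulum, rose by 0.44 and 0.75, and the phosphoglucomutase family genes *Pgm2* and *Pgm2l1* rose by 1.19 and 0.78 in PKM2fl/fl hearts. Over all genes tested the median log2 fold change was -0.0025 in PKM2fl/fl and 0.010 in PKM2-/- hearts.

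Of the 10 genes listed as mitochondrial docking partners and related kinases and regulators, 7 fell and 0 rose after MI in each genotype (median log2 fold change -0.68 and -0.67), beside 50.1% and 56.8% of all genes called in either direction. *Vdac1*, the channel on which HK1 and HK2 dock, went from 13224 ± 133 to 5575 ± 1471 normalized counts in PKM2fl/fl hearts and from 12830 ± 1053 to 5100 ± 822 in PKM2-/- hearts, log2 fold changes of -1.28 and -1.34 (adjusted p = 1.94e-05 and 8.55e-06, limma). *Vdac3* fell by 0.99 and 0.90 on that scale, and *Slc25a4*, the muscle ADP/ATP carrier, fell by 1.95 and 1.94. *Tigar*, a fructose bisphosphatase reported to bind HK2 at mitochondria, fell by 1.23 and 1.45. Of the 7 listed regulators of *Hk2* transcription, 2 rose and 2 fell in PKM2fl/fl hearts and 3 rose and 2 fell in PKM2-/- hearts, which is near the share of all genes called. *Hif1a*, which encodes the hypoxia-inducible subunit known to activate *Hk2*, rose by 1.02 and 1.36, and *Myc* rose by 2.71 and 2.11. The part of these regulators in the level of *Hk2* was not tested. *Epas1*, the paralogue of *Hif1a*, fell by 0.94 and 1.17, and *Ppargc1a*, a coactivator of mitochondrial genes, fell by 1.92 and 2.72. The comparison of the genotypes after MI called 0 genes of these 4 lists, beside 0.967% of all genes. From baseline to sham in PKM2-/- hearts, where 5.14% of all genes were called, *G6pdx* (0.63, adjusted p = 0.044, limma) and *Myc* (1.63, adjusted p = 0.00777) rose.

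**Figure D5:**
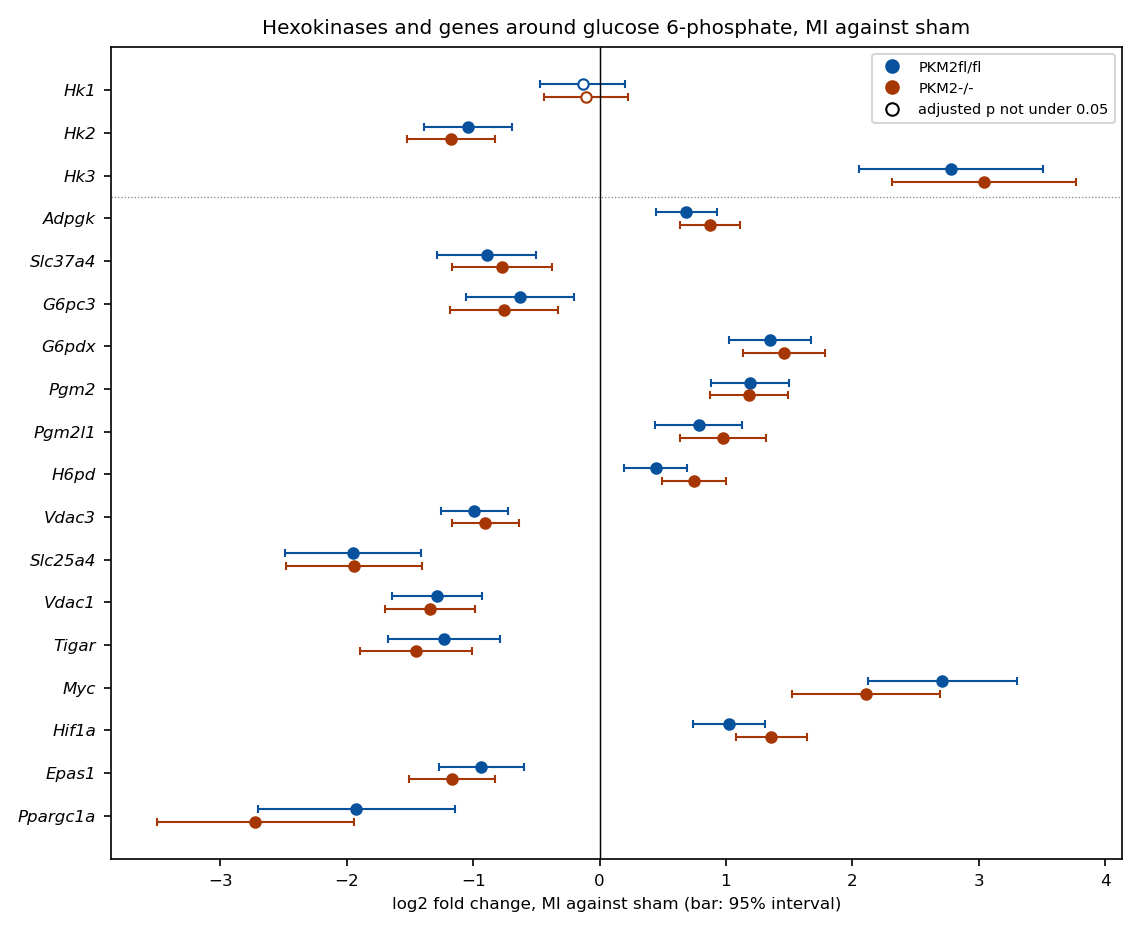
Log2 fold changes of MI against sham (x axis) for the 3 tested hexokinases and, under the dotted line, genes of the 4 lists (y axis). The listed genes are those named by smallest p, without *Gpi1*. Values are for PKM2fl/fl and PKM2-/- hearts, with 95% intervals and filled points for an adjusted p under 0.05. Only *Hk1* has open points, and for the genes shown the sign was the same in both genotypes.

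The genes most like each member over the 16 libraries, by Pearson's r of log2 values among 20575 genes, are given as a description. For *Hk2* these were *Dag1* (0.99), *Epas1*, *Fbxo31*, *Tom1l2* and *Myo7b*. Within the 10 hearts without MI these 5 had an r of 0.80 to 0.89 with *Hk2*, and within the 6 MI hearts 0.90 to 0.95. For *Hk3* they were *Bmp2* (0.99), *Rrm2*, *Itga2*, *Lta4h* and *Milr1*, with an r of 0.88 to 0.98 without MI and 0.51 to 0.80 within MI. For *Hk1* they were *Amotl1* (0.93), *Dusp3*, *Gimap6*, *Hmg20b* and *Usp49*, with an r of 0.64 to 0.88 without MI and 0.87 to 0.99 within MI. The libraries fall into MI and others, and the genes compared share each library's depth and scaling.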

How the data were processed

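Left ventricular RNA, depleted of rRNA, was sequenced as paired ends from 16 mice. Before deposit, the authors used PRINSEQ for trimming, HISAT2 for alignment to mm10 and featureCounts for reads per gene. The strand setting, the treatment of multi-mapping reads and the annotation are not given in the sources used here. The authors deposited a signal per gene and library, the read count divided by a DESeq2 size factor, with the authors' own comparison of the baseline groups (log2 fold change, its error, Wald statistic and p-values), which was not used. Dividing by the step between values gave whole reads (within 0.01) for 100% of values.

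Groups were read from the sample labels. Each library is its own mouse. limma 3.58.1 in R 4.3.3 was fitted with a trend to log2 of the value plus 1 for all 16 libraries in 6 groups, with 20576 genes kept at a mean of 10 or more, with Benjamini-Hochberg adjustment and a threshold of 0.05. The fit was tested on simulated data, where it recovered 97.5% of 200 changed genes of 20568 tested with 5 false calls, for MI against sham in PKM2fl/fl hearts. The simulation gave all genes the same spread and changed only well-expressed genes, by at least 2-fold. In the data 50.1% of genes were called in that comparison and the spread was not matched. The recovery therefore does not carry over to these data. Ratios were tested by exact permutation in Python 3.11.15 with NumPy 2.4.6, two-sided, within genotype or treatment. The Wilson intervals came from SciPy 1.17.1. edgeR 4.0.16 and DESeq2 1.42.0 on the recovered reads, other scalings, pseudocounts and filters and each library left out were alternatives. Exon lengths come from GENCODE on GRCm39, promoters and coordinates from RefSeq on GRCm38.p6. No stretch of 50 bases was shared between transcripts of the 4 genes.

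The members and gene lists were chosen with earlier results of these data known. All members were named, with at most 4 genes per list by smallest p in MI against sham in PKM2fl/fl hearts, and 5 genes per member by likeness. *Gpi1* was named outside this rule, as the only tested enzyme of its list that fell. A gene of 1 list is not reported here, and its list was counted without it.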

Additional observations from a re-analysis of the deposited data

How the results depend on the processing

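Across 16 alternatives each, the rise of *Hk3* after MI kept its direction and passed in both genotypes (log2 fold changes of 2.60 to 2.87 in PKM2fl/fl and 2.82 to 3.55 in PKM2-/- hearts, largest adjusted p 0.000114 and 3.27e-05, limma, edgeR or DESeq2). The fall of *Hk2* passed in 16 of 16 in PKM2fl/fl hearts (-1.22 to -0.82) and in 15 of 16 in PKM2-/- hearts (-1.25 to -0.66), where scaling to total reads left 1 hexokinase called. That scaling moves with the rRNA-related reads, which differ between libraries from 16.8% to 49.9%. Samples share a replicate number but no animal. Over 36 pairs with the same number, the correlation of deviations from the group means ran from -0.20 to 0.13, above 0.1 for 1 pair. With the replicate block 2 hexokinases were called after MI in each genotype, as without it, and the count over all genes moved by more than 1.5 times for the genotypes after MI (75 against 199), after sham (0 against 2) and at baseline (1 against 2), and from baseline to sham in PKM2fl/fl hearts (24 against 39). Over all alternatives that kept every library, the genes called between genotypes numbered 1 to 48 at baseline (2 in the report), 0 to 273 after sham (2) and 6 to 2040 after MI (199), those of the interaction 0 to 52 (0), those from baseline to sham 1 to 749 in PKM2fl/fl (39) and 588 to 1427 in PKM2-/- hearts (1058), and those after MI 6027 to 10857 in PKM2fl/fl hearts (10299).

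The sign changes under other scalings or tools were of values that passed neither way. With total reads as scaling, *Hk1* after MI in PKM2-/- hearts was 0.40, PKM2-/- against PKM2fl/fl was -0.52 for *Hk1* and -0.53 for *Hk2* at baseline, -0.044 for *Hk1* and -0.073 for *Hk3* after sham and 0.21 for *Hk2* after MI. Under it the *Hk2* interaction was 0.56, and sham against baseline in PKM2-/- hearts 0.085 for *Hk1* and 0.18 for *Hk2*. With total reads but no rRNA-related or mitochondrial genes, *Hk1* after MI in PKM2-/- hearts was 0.12, the *Hk2* interaction 0.0024, and the baseline genotype difference -0.018 for *Hk1* and -0.021 for *Hk2*. Sample weights gave a *Hk1* interaction of -0.20, edgeR and DESeq2 gave 0.028 and 0.016 for *Hk3* between genotypes at baseline, and the replicate block gave 0.045 for *Hk2* from baseline to sham in PKM2-/- hearts. The share of rRNA-related reads at baseline was 18.0% and 22.9% in PKM2fl/fl and 45.5% and 41.5% in PKM2-/- hearts. After sham it was 16.8% to 28.7% in PKM2fl/fl and 30.1% to 48.6% in PKM2-/- hearts, again without overlap. After MI it was 21.2% to 49.9% and 17.2% to 37.8%, with overlap. The cause of these changes was not tested.

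With 1 library left out in turn, *Hk1* after MI in PKM2fl/fl hearts ranged from -0.25 to 0.037, and the interaction from -0.14 to 0.14 for *Hk1* and -0.35 to 0.020 for *Hk2*. Between genotypes at baseline the ranges were -0.14 to 0.27 for *Hk1*, -0.0037 to 0.13 for *Hk2* and -1.13 to 0.60 for *Hk3*, and -0.18 to 0.053 for *Hk2* after sham. From baseline to sham they were -0.0043 to 0.13 for *Hk2* in PKM2fl/fl hearts, and -0.34 to 0.076 for *Hk1* and -0.18 to 0.051 for *Hk2* in PKM2-/- hearts, where 0 to 1 hexokinases were called. A group of 2 with 1 left out is a lone heart assumed to vary like the other groups. The genotype difference of the *Hk2* to *Hk1* log2 ratio ranged from -0.31 to -0.21, and no other ratio changed its side of the threshold.

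With the longest transcript as length, *Hk1* had 47.2%, 40.3% and 51.4% of the family at baseline, after sham and after MI in PKM2fl/fl hearts and 47.3%, 45.4% and 56.9% in PKM2-/- hearts. *Hk2* had 52.1%, 58.8% and 40.0% and 52.1%, 53.5% and 32.2%, and *Hk3* 10.8% in PKM2-/- MI hearts. This follows from the shorter length of *Hk1*. Relative to CM markers, which fell after MI, *Hk1* and *Hk2* were higher after MI by 1.81 and 0.82 in place of lower. On that scale, an alternative chosen after seeing the data, *Hk2* was higher in PKM2-/- hearts by 0.17. Relative to neutrophil markers *Hk3* was at -0.64 in PKM2-/- against PKM2fl/fl hearts.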
